A study of Mus musculus with 12 samples.

Results

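The genes described here encode the 7 Cdk inhibitors of the Cip/Kip and INK4 families and the 3 Gadd45 proteins. They were followed in Runx2-null and wild-type mouse humeri. Members were all probe sets whose array annotation gave exactly 1 gene symbol and whose symbol was Cdkn1a, Cdkn1b, Cdkn1c, Cdkn2a, Cdkn2b, Cdkn2c, Cdkn2d, Gadd45a, Gadd45b or Gadd45g. This gave 13 probe sets for 10 genes, out of 36701 probe sets on 3 array types. All 13 lay on array type A, so array types B and C carried no value for these genes. Total RNA was taken from the humerus, a forelimb long bone that is largely cartilage at this age, of E14.5 embryos that were Runx2 -/- or Runx2 wild type. Each genotype had 2 pools, of approximately 60 humeri per pool for Runx2 -/- and approximately 75 for wild type, and the labels give neither strain nor sex. The values are MAS5 signals, an array brightness on a linear scale that Affymetrix software makes from matched and mismatched probes. With 2 arrays per genotype, an exact permutation test cannot give a p below 0.333, so none was run.

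Cip/Kip proteins (Cdkn1a, Cdkn1b, Cdkn1c) bind cyclin-Cdk complexes and hold cells out of the cycle, and INK4 proteins (Cdkn2a to Cdkn2d) bind Cdk4 and Cdk6 and keep cyclin D off them. Gadd45 proteins are induced by stress and by differentiation signals, bind PCNA and the Cdk1-cyclin B complex, and can activate the kinase Map3k4 upstream of p38. In the growth plate chondrocytes stop dividing before they enlarge into hypertrophic cells, and osteoblasts leave the cycle as they mature. Osteoblasts form only with the transcription factor Runx2, which also promotes the maturation of chondrocytes.

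Runx2 itself is not analysed here, which leaves the genotypes as labelled without that check. The array files placed replicate 1 of both genotypes in a scan batch with scanner type HP, pixel size 3 µm and 2 scans. Replicate 2 of both lay in another (scanner type M10, 2.5 µm, 1 scan). Each replicate number is also a separate RNA pool of each genotype, so scan and pool differences between batches cannot be told apart. After each genotype mean was subtracted, arrays with the same number on array A correlated at r = 0.764 over 7745 probe sets, which are not independent. On array B r was 0.595 and on array C, which holds no member, 0.0557; the block was fitted on all 3 types, and the adjustment over all probe sets includes C. The main limma fit had no block. Because of the separate scan settings, a second fit had the scan batch (the replicate number) as a block. SEs and p-values are from the blocked fit unless the text says otherwise. The summed signal of 14 chondrocyte genes was 21739 and 22831 in Runx2-null pools, against 18987 and 23180 in wild-type pools. Col9a1 gave the largest signal in each of these sums, at 5807 and 7144 in Runx2-null pools, against 4625.5 and 6374 in wild-type pools. With the block, 1 of the 14 fell, which was Hapln1 (log2 fold -0.71, blocked adjusted p = 0.00177). Matn3 had -0.51 and did not pass (blocked adjusted p = 0.0593). The 14 log2 folds were split into 8 negative and 6 positive ones.

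In the fit with the block, Cdkn1a and Gadd45g were lower in the Runx2-null humeri, while no other Cdk inhibitor or Gadd45 probe set passed. In the main fit, which had no block, 0 member probe sets passed. Testing required a signal above the 40th percentile of the array in 2 or more of the 4 arrays, which 8 member probe sets of 6 genes reached. With the replicate block, 3 of these 8 fell and 0 rose, at an adjusted p of 0.05 over all 23193 tested probe sets. On array A, 2.25% of the 7745 tested probe sets fell and 3.86% passed in either direction by the same rule. Without the block, limma called 0 of the 8 members, against 0.0259% of all tested probe sets, and 1 of 8 had an unadjusted p under 0.05, as did 1792 of the 23193 tested probe sets (7.73%). The words fell and rose below refer to the fit with the block. That fit leaves 1 residual degree of freedom per probe set and draws a prior of 12.7 degrees of freedom from the other probe sets of array A, so its standard errors rest mostly on other genes. Both Runx2-null arrays lay below both wild-type arrays for 2 of the 8 and above them for 0. On array A as a whole the first pattern held for 11.1% of tested probe sets, and 25.2% showed no overlap in either direction. The share of members without overlap in either direction was near that background. The 3 calls were lost with the block when no filter was used (adjusted p = 0.130, 0.0767 and 0.118 for Cdkn1a 94881_at, Cdkn1a 98067_at and Gadd45g), when the variance trend was left out (0.286, 0.261 and 0.206) and when all array types shared 1 fit (0.222, 0.167 and 0.163). The median log2 fold of the 8 members was -0.17, against 0.02 over array A.

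**Figure D1:**
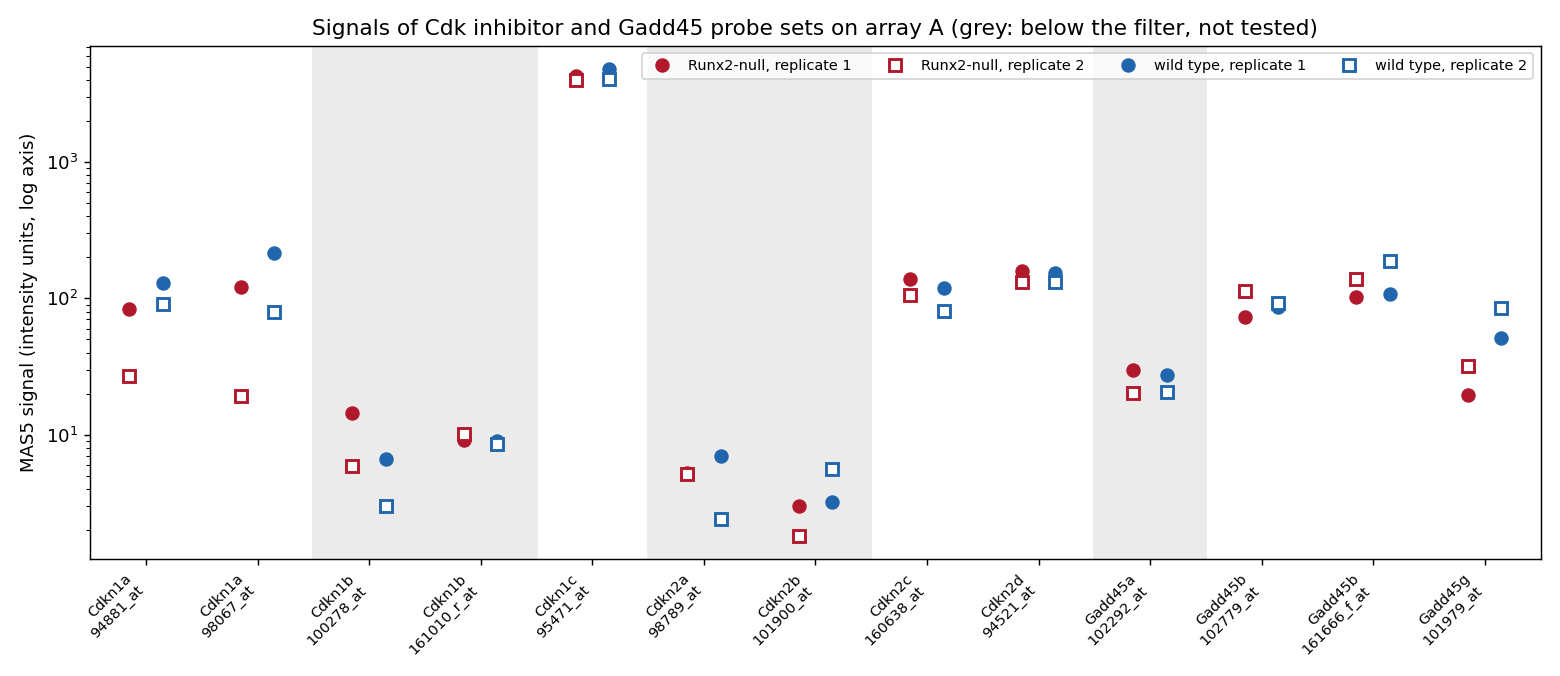
MAS5 signal (log axis) of the 13 probe sets on array A, with 2 Runx2-null arrays (red, left) and 2 wild-type arrays (blue, right) each; filled circles are replicate 1 and open squares replicate 2, and grey columns were below the filter. The Gadd45g arrays of the genotypes do not overlap, and the replicate 2 arrays of Cdkn1a are lower than the replicate 1 arrays in both genotypes.

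Cdkn1a encodes p21, the inhibitor that p53 and growth-arrest signals induce. Its probe set 98067_at had signals of 120.8 and 19.3 in Runx2-null replicates 1 and 2, against 215.7 and 80.0 in wild-type replicates 1 and 2. The Runx2-null array was lower than the wild-type array in each scan batch, but the genotypes overlap when batches are pooled. The second probe set, 94881_at, had 83.4 and 26.8 in Runx2-null arrays, against 130.1 and 91.7 in wild-type arrays, with no overlap. Values were compared as log2(signal + 7), which understates changes of dim probe sets. On this scale 98067_at fell by 1.26 (SE 0.21, blocked adjusted p = 0.00654), and 94881_at fell by 1.07 (SE 0.21, blocked adjusted p = 0.0214). Without the block the same differences had SE 0.82 and 0.50 and adjusted p = 0.924 and 0.746. Both probe sets read the same 4 RNA pools and are not replicates of each other.

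The Cdkn1a difference was present in both scan batches and larger in the second. In batch 1 the log2 fold was -0.80 for 98067_at and -0.60 for 94881_at; in batch 2 it was -1.73 and -1.55. With 1 array per genotype in a batch, the difference between batches could not be tested. The signal of 19.3 in Runx2-null replicate 2 lay under the filter of 21.7 for that array, so the fold in batch 2 rests on a dim reading. Leaving out 1 array moved the log2 fold of 98067_at to -0.12 without Runx2-null replicate 2, -2.40 without Runx2-null replicate 1, -0.59 without wild-type replicate 1 and -1.94 without wild-type replicate 2. For 94881_at the corresponding values were -0.36, -1.78, -0.84 and -1.31. None of these fits, which have no block, called either probe set.

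Skeletal muscle genes also differed between the replicate numbers, which mark separate RNA pools as well as scan batches. The summed signal of 14 muscle genes was 5942 in replicate 1 and 1094 in replicate 2 of Runx2-null, and 5093 and 1392 in the same replicates of wild type. All 14 were over the filter, and 0 passed between genotypes (median log2 fold 0.02). The replicate with the lower muscle sum was also the one with the lower Cdkn1a signal in both genotypes. The part of muscle RNA in the Cdkn1a values was not tested.

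Cdkn1a has 2 annotated transcription starts in RefSeq (GRCm38.p6), both on the plus strand, and the 250 bases before each are shown because this gene fell on 2 probe sets. Capitals in the upstream window mark matches to the p53 half-site, 51 and 73 bases before its start. Capitals in the downstream window mark the GC box GGGCGG, 46 and 104 bases before its start.
Cdkn1a upstream start, chr17:29090729-29090978: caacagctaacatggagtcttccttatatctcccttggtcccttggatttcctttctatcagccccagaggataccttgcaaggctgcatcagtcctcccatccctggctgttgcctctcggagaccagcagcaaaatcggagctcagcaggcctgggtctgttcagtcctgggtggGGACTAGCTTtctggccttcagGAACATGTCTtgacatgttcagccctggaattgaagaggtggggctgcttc
Cdkn1a downstream start, chr17:29093519-29093768: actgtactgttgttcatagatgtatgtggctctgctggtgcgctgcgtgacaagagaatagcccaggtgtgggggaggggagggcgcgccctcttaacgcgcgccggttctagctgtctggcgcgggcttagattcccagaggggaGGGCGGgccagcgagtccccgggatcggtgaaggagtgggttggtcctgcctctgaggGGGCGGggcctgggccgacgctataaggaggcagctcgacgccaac
Neither window held the RUNX core ACCACA or its reverse complement TGTGGT, and motifs were searched on both strands. Of 32817 promoter windows of the same length, 14.0% held that core, 32.7% held the GC box or its reverse complement CCGCCC, and 7.12% held a p53 half-site. The 2 GC boxes overlap no other motif searched, nor do the p53 half-sites. These matches describe the letters in the windows and not binding.

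Gadd45g was the other gene that fell. It is a Gadd45 member induced during differentiation of several cell types. Its probe set 101979_at had signals of 19.4 and 31.8 in Runx2-null arrays, against 51.2 and 85.1 in wild-type arrays. Both Runx2-null arrays were lower than both wild-type arrays. Gadd45g fell by 1.19 on the log2 scale (SE 0.22, blocked adjusted p = 0.0158), while without the block the SE was 0.39 and the adjusted p = 0.487. In contrast to Cdkn1a, the log2 fold was of similar size in both batches, at -1.14 in batch 1 and -1.25 in batch 2. Gadd45g was brighter in batch 2 in both genotypes, whereas Cdkn1a was dimmer there. Runx2-null replicate 1, at 19.4, lay under the filter of 28.0 for its array. Leaving out 1 array gave log2 folds from -1.52 to -0.86, with 0 calls.

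The window before the Gadd45g start is shown as the second promoter of a gene that fell. Capitals mark TATAAA, 27 bases before the start on the plus strand; 12.4% of all windows held TATAAA or its reverse complement TTTATA. No RUNX core was found.
Gadd45g, chr13:51846425-51846674: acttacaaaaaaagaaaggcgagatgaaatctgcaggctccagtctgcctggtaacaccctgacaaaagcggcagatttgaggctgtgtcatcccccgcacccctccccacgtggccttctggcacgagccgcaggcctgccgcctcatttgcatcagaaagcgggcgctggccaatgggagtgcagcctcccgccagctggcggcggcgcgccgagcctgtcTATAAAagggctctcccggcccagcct
The table held windows for 9 of the 10 genes, 12 in all, and 0 of the 12 held the RUNX core. Among the other members, Gadd45b had a TATAAA match 46 bases before its start, and Cdkn2d and Gadd45a each had 1 p53 half-site.

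**Figure D2:**
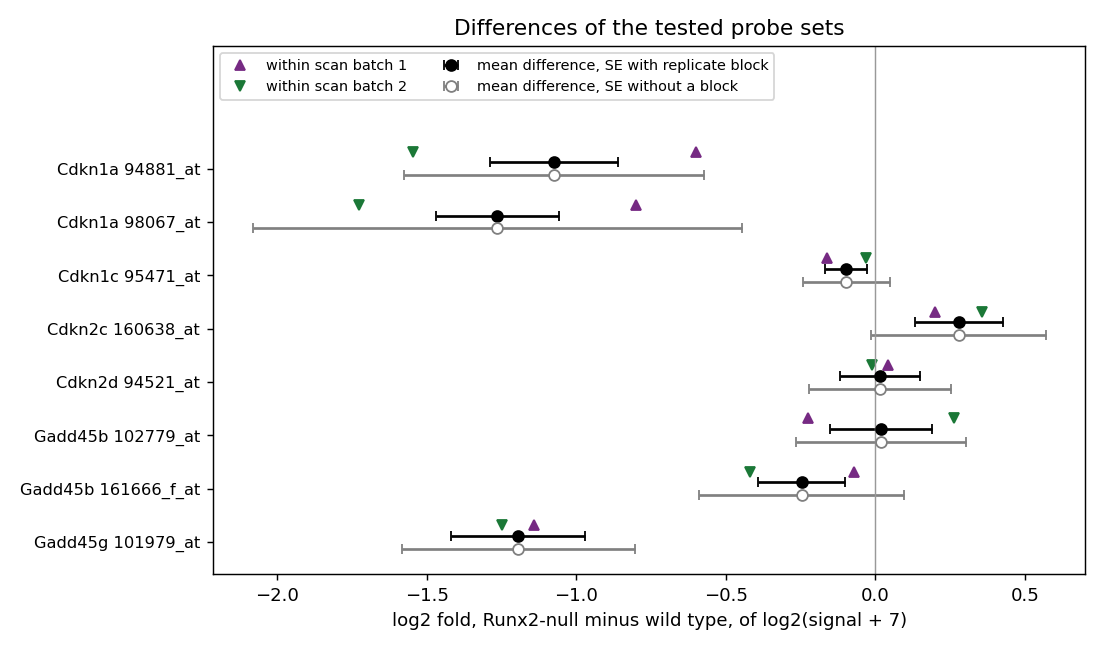
Log2 fold (Runx2-null minus wild type, of log2(signal + 7)) of the 8 tested probe sets; black and grey points are the mean difference with its SE with and without the replicate block, and triangles are the differences within each scan batch. The Cdkn1a and Gadd45g probe sets lie below -1, and the 2 batches of Cdkn1a lie far apart.

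Among the other Cip/Kip genes, Cdkn1c encodes p57, an imprinted inhibitor that mouse chondrocytes need for cell cycle exit during hypertrophy. Its probe set 95471_at was bright on every array, with signals of 4311 and 4023 in Runx2-null arrays, against 4819 and 4114 in wild-type arrays. The ranges overlapped, and within each batch the Runx2-null array was slightly lower. The log2 fold was -0.10 (SE 0.07, 95% interval -0.25 to 0.05, blocked adjusted p = 0.534). After quantile normalization with the block it was -0.33 (adjusted p = 0.0263), so the call for this gene differed between the normalizations. Cdkn1b, which encodes p27, had 2 probe sets below the filter on all 4 arrays. Probe set 100278_at read 14.3 and 5.9 in Runx2-null arrays, against 6.6 and 3.0 in wild-type arrays. Probe set 161010_r_at, whose suffix marks probes chosen under relaxed rules, read 9.1 and 10.1, against 9.0 and 8.5. How much Cdkn1b transcript was present cannot be read from signals this dim.

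In the INK4 family no member passed. Cdkn2c, which encodes p18, had signals of 139.2 and 106.2 in Runx2-null arrays, against 120.2 and 81.4 in wild-type arrays. The Runx2-null array was the higher one in both batches, and the genotypes overlapped. The log2 fold was 0.28 (SE 0.15, 95% interval -0.04 to 0.60, blocked adjusted p = 0.362), with 0.20 in batch 1 and 0.36 in batch 2. Cdkn2d, which encodes p19 of the INK4 family, had 159.3 and 131.8 in Runx2-null arrays, against 154.3 and 132.9 in wild-type arrays. Its values were almost the same in the 2 genotypes of each batch (log2 fold 0.02, SE 0.13, 95% interval -0.27 to 0.30). Cdkn2a and Cdkn2b, neighbouring genes whose products are linked to senescence, were below the filter on all arrays. Cdkn2a read 5.2 and 5.1 in Runx2-null arrays, against 7.0 and 2.4 in wild-type arrays. Cdkn2b read 3.0 and 1.8 in Runx2-null arrays, against 3.2 and 5.6 in wild-type arrays. Neither was tested, and no fold is given for readings this dim.

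The other Gadd45 genes gave no call either. Without the block the SE was 0.15 for Cdkn1c, 0.29 for Cdkn2c, 0.24 for Cdkn2d, 0.28 for Gadd45b 102779_at and 0.34 for Gadd45b 161666_f_at, and the adjusted p was 0.999 for each. Gadd45b has been described in hypertrophic chondrocytes of the mouse. Its probe set 102779_at had 73.3 and 112.5 in Runx2-null arrays, against 86.9 and 92.5 in wild-type arrays. The direction differed between batches, with a log2 fold of -0.23 in batch 1 and 0.26 in batch 2 and a mean of 0.02 (SE 0.17, 95% interval -0.35 to 0.39). The second probe set, 161666_f_at, whose suffix marks probes shared with related sequences, had 101.9 and 140.0 in Runx2-null arrays, against 107.5 and 189.6 in wild-type arrays. Its log2 fold was -0.25 (SE 0.14, 95% interval -0.56 to 0.06, blocked adjusted p = 0.416). Gadd45a, a p53-responsive gene, read 29.9 and 20.3 in Runx2-null arrays, against 27.5 and 20.6 in wild-type arrays. It was over the filter on 1 array only and was not tested, and its readings differed between genotypes by less than they differed between batches.

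Markers of cell types that the humerus can hold were read on the same arrays. Of 10 osteoblast genes tested on arrays A and B, 9 fell and 0 rose, with summed signals of 9384 and 6340 in Runx2-null pools, against 13752 and 12148 in wild-type pools. Most of each sum came from Col1a1 and Col1a2, whose arrays overlapped between genotypes. Col1a1 read 5014.2 and 3748.8, against 5664.5 and 4769, and Col1a2 read 4124.5 and 2315.9, against 5132.5 and 3699.2. Of 7 hypertrophic chondrocyte genes 4 fell, with sums of 940.3 and 977.2, against 2071 and 2974. Of 4 osteoclast genes 3 fell, with sums of 265.3 and 395.8, against 1803 and 1911. Another 4 osteoclast genes on arrays A and B were below the filter. Over arrays A and B, 1.48% of 10032 genes fell and 0.917% rose. Ibsp, a gene of the osteoblast list, read 8.4 and 5.4 in Runx2-null arrays, against 1680 and 2221 in wild-type arrays. Mmp13 of the hypertrophic list read 2.5 and 8.3, against 478.5 and 825.3, and Mmp9 of the osteoclast list 10.0 and 3.4, against 812.4 and 618.1. Ibsp, Mmp13 and Mmp9 each had the lowest p with the block in their list. Ibsp, Dmp1, Dlx3, Lrp5, Omd, Mmp13 and Mmp9 were over the filter on the wild-type arrays alone. Genes that passed the filter in this way could be counted as fallen but not as risen. Other list members changed less, with a log2 fold of -0.26 for Col1a1, -0.21 for Mef2d and 0.20 for Vegfa, which did not pass. Pth1r is counted in both the osteoblast and the hypertrophic list. In pooled tissue, fewer cells of a type and less RNA per cell cannot be told apart, and the part of these cell types in the Cdkn1a and Gadd45g values was not tested. Of 10 tested endothelial genes 0 passed, but 9 had a negative log2 fold and 4 an unadjusted p under 0.05 with the block (median -0.33). Their summed signal was 985.4 and 610.1 in Runx2-null pools, against 1163 and 801.1 in wild-type pools. It was lowest in Runx2-null replicate 2 and highest in wild-type replicate 1, as were both Cdkn1a probe sets. The osteoblast, macrophage and erythroid sums were lowest and highest in the same pools. The 9 macrophage genes were split, with 5 negative and 4 positive log2 folds, and 5 had an unadjusted p under 0.05 with the block. Cd68 had -0.58 and Tyrobp -0.80, while C1qa had 0.72 and C1qb 0.70. Both C1qa and C1qb were highest in Runx2-null replicate 1. Hba-a1 made up most of each erythroid sum, at 2783 and 1804 in Runx2-null pools, against 3057 and 2013 in wild-type pools. The part of endothelial, macrophage or erythroid RNA in the Cdkn1a values was not tested. Macrophage, erythroid, neural and epidermal markers gave 0 calls each among 9, 7, 5 and 5 tested genes.

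**Figure D3:**
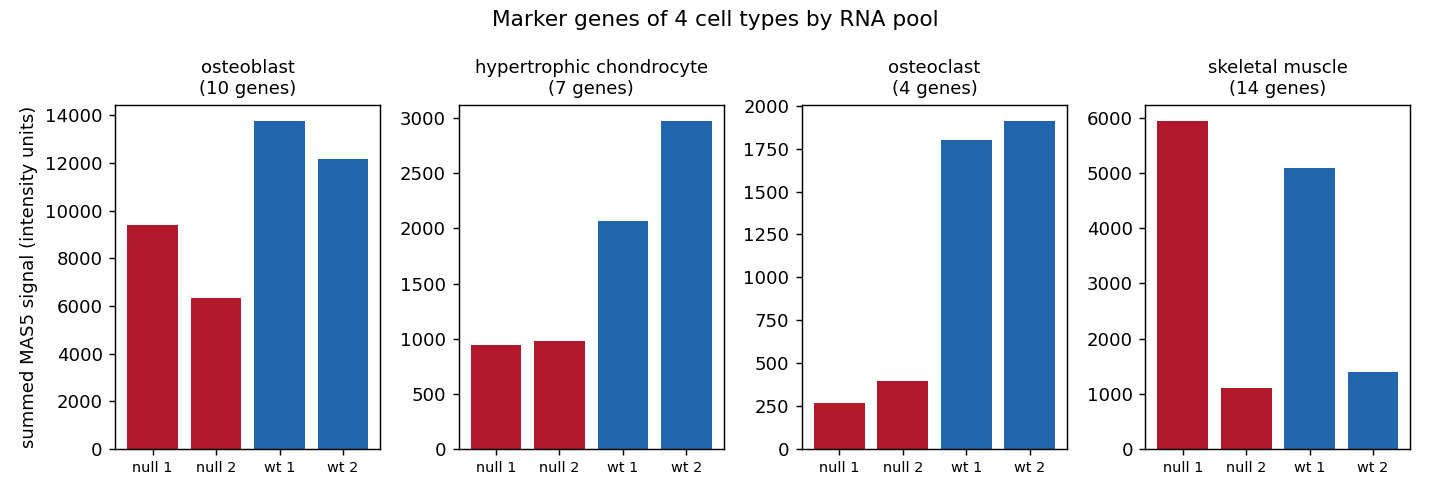
Summed MAS5 signal of tested marker genes in each RNA pool, Runx2-null in red and wild type in blue. Osteoblast, hypertrophic chondrocyte and osteoclast sums are lower in both Runx2-null pools, and muscle sums are lower in replicate 2 of both genotypes. Col1a1 and Col1a2 make up most of each osteoblast sum.

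Probe sets with values most like those of the 3 falling member probe sets were ranked by the root mean square difference of centred log2 values over the 4 arrays, among 7006 named candidates on array A. For Gadd45g the closest were Gnai1 (a G protein subunit, difference 0.05), Bmp6 (0.07), Cd164 (0.08), Ihh (0.12) and Scd1 (0.14). Ihh, the hedgehog ligand of prehypertrophic chondrocytes, read 44.5 and 53.8 in Runx2-null arrays, against 99.8 and 148.4 in wild-type arrays. Bmp6, a signal made in hypertrophic cartilage, read 37.9 and 52.9, against 93.5 and 137.2. Like Gadd45g, these were lowest in Runx2-null replicate 1 and highest in wild-type replicate 2.

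For Cdkn1a probe set 94881_at the closest were Plxnd1 (a semaphorin receptor, 0.09), Khdrbs1 (0.15) and 3 probe sets of Mef2c (0.11, 0.13 and 0.15), a transcription factor of muscle that chondrocyte hypertrophy also requires. The closest of these Mef2c probe sets read 164.8 and 49.9 in Runx2-null arrays, against 251.1 and 150.6 in wild-type arrays. For probe set 98067_at they were Dpysl3 (0.23), Wnt5a (0.24), Colq (0.24), Jup (0.25) and Col18a1 (0.26). Wnt5a, a Wnt ligand of the growth plate, read 50.2 and 8.4 in Runx2-null arrays, against 83 and 26.3 in wild-type arrays. The lists of the 2 Cdkn1a probe sets shared no gene. With 4 arrays, 2 of them per batch, such likeness follows genotype and batch together and is a description only.

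**Figure D4:**
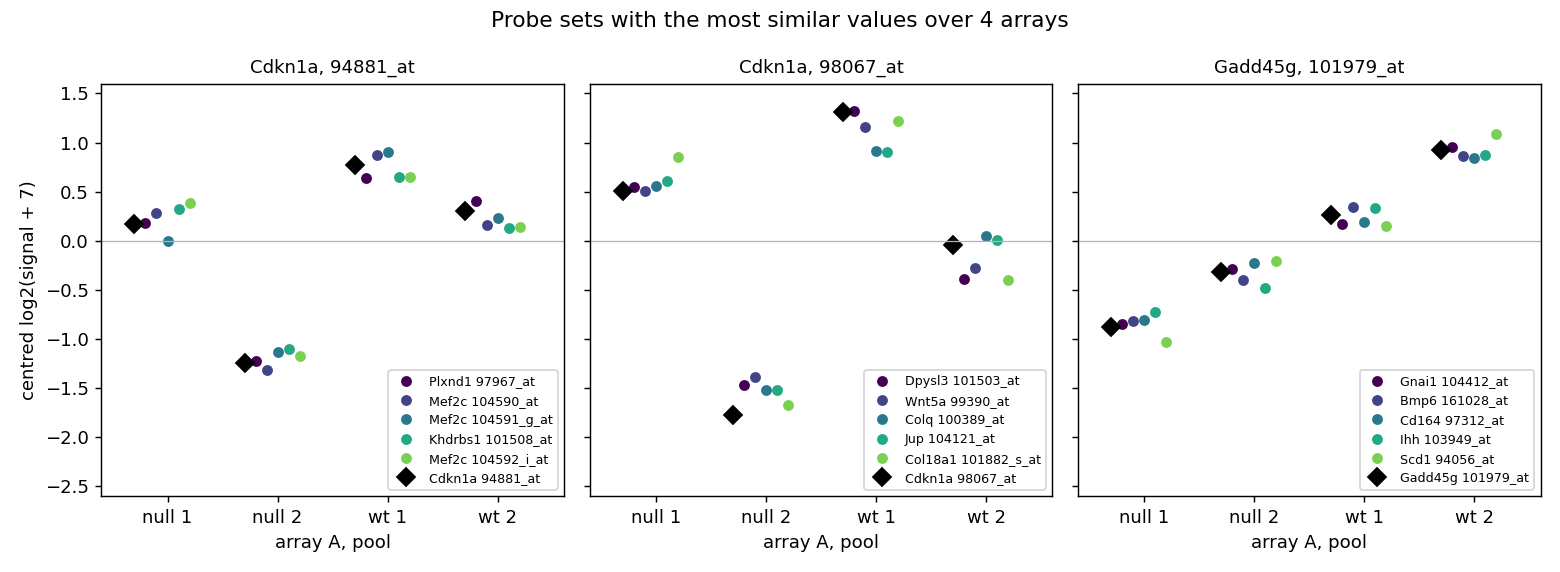
Centred log2(signal + 7) on the 4 arrays of type A for the 2 Cdkn1a probe sets and the Gadd45g probe set (black diamonds) and the 5 closest named probe sets of each (coloured circles). Cdkn1a is lowest in Runx2-null replicate 2, and Gadd45g is lowest in Runx2-null replicate 1.

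The kinases and cyclins that Cdk inhibitors act on gave no call, nor did the tested pocket proteins and E2F factors. The pocket protein gene Rb1 was below the filter and was not tested. Of 21 tested Cdks, cyclins and their regulators 0 rose and 0 fell (median log2 fold -0.01), as did 0 of 10 pocket protein and E2F genes (median 0.02), where the median of all 10032 genes was 0.01. Ccnd3, a D-type cyclin, read 640.2 and 512.8 in Runx2-null arrays, against 320.8 and 500.6 in wild-type arrays. Its log2 fold was 0.51 (SE 0.16, blocked adjusted p = 0.116), and a second probe set on array B had -0.04. Cdk6, a partner of D cyclins, read 223.1 and 216.7, against 312.8 and 337.5 (log2 fold -0.54 ± 0.18 SE, blocked adjusted p = 0.179).

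Genes of the dividing cell likewise gave no call. Among 19 tested DNA replication genes 0 passed, with 6 negative and 13 positive log2 folds and a median of 0.08. The ribonucleotide reductase subunit Rrm1 had a log2 fold of 0.20 (SE 0.11) and the replication regulator Uhrf1 had 0.29 (SE 0.13), with blocked adjusted p = 0.35 and 0.264. Among 19 mitotic genes 0 passed, with a median of 0.05. The kinase Aurkb read 107.4 and 145.1 in Runx2-null arrays, against 157.4 and 159.8 in wild-type arrays (log2 fold -0.33 ± 0.14 SE, blocked adjusted p = 0.264). The survivin gene Birc5 had -0.34 (SE 0.16) and the tubulin regulator Stmn1 0.23 (SE 0.09), with adjusted p = 0.295 and 0.202.

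Of 13 tested p53 pathway genes, 1 rose, 0 fell and 12 did not pass, with a median log2 fold of -0.08. Sesn1, a stress-responsive regulator of metabolism, read 294.8 and 279.3 in Runx2-null arrays, against 200.4 and 194.2 in wild-type arrays, and rose by 0.53 (SE 0.11, blocked adjusted p = 0.0311). The 13 log2 folds were split into 7 negative and 6 positive ones. Plk2 read 124.9 and 61.2 in Runx2-null arrays, against 182.4 and 83.4 in wild-type arrays (log2 fold -0.46 ± 0.15 SE, blocked adjusted p = 0.124). The antiproliferative gene Btg2 read 105.1 and 113.6, against 170.2 and 134.7 (log2 fold -0.45 ± 0.15 SE, blocked adjusted p = 0.140). Mdm4, a p53 inhibitor, read 258.1 and 278.8 in Runx2-null arrays, against 187.4 and 246.9 in wild-type arrays (log2 fold 0.31 ± 0.12 SE, blocked adjusted p = 0.2). Among 9 MAP kinases downstream of Gadd45 proteins 0 passed (median 0.02). Map3k4 itself read 59.3 and 54.3 in Runx2-null arrays, against 56.5 and 74.7 in wild-type arrays (log2 fold -0.18 ± 0.20 SE, blocked adjusted p = 0.707).

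Of 12 tested quiescence and antiproliferative genes, 3 rose, 0 fell and 9 did not pass (median log2 fold 0.19). Gas1, a growth-arrest gene and hedgehog co-receptor, read 676.3 and 679.5 in Runx2-null arrays, against 424.3 and 468.6 in wild-type arrays, and rose by 0.60 (SE 0.09, blocked adjusted p = 0.00536). Gas2, a cytoskeletal growth-arrest gene, read 401.4 and 337.2, against 291.6 and 197.8, and rose by 0.60 (SE 0.11, blocked adjusted p = 0.0165). Its other probe sets had 0.42 and 0.28 and did not pass. Txnip, an inhibitor of thioredoxin, rose by 0.53 (SE 0.12, blocked adjusted p = 0.0327), while a second probe set had 0.19 (adjusted p = 0.725). These 3 genes lie on the opposite side of zero from Cdkn1a and Gadd45g.

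Among 21 regulators of Cdk inhibitor genes, 0 rose, 1 fell and 20 did not pass (median 0.03). Klf4, a transcription factor that can induce Cdkn1a, read 235.4 and 294.9 in Runx2-null arrays, against 329.8 and 401.2 in wild-type arrays, and fell by 0.45 (SE 0.11, blocked adjusted p = 0.0433). Myc, which represses Cdkn1a, read 55.3 and 58.6, against 91.6 and 95.6 (log2 fold -0.65 ± 0.17 SE, blocked adjusted p = 0.0641). The Polycomb gene Bmi1, which represses the Cdkn2a locus, read 111.8 and 117.8, against 73.4 and 90.6 (log2 fold 0.46 ± 0.16 SE, blocked adjusted p = 0.144). In all, 4 of 124 tested genes of the 8 lists rose and 1 fell, and none of the 5 passed without the block, where the adjusted p of the genes named from these lists was 0.483 to 0.999. With the block, 0 list genes passed without a variance trend, 0 in 1 fit over all array types and 1 without a filter.

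**Figure D5:**
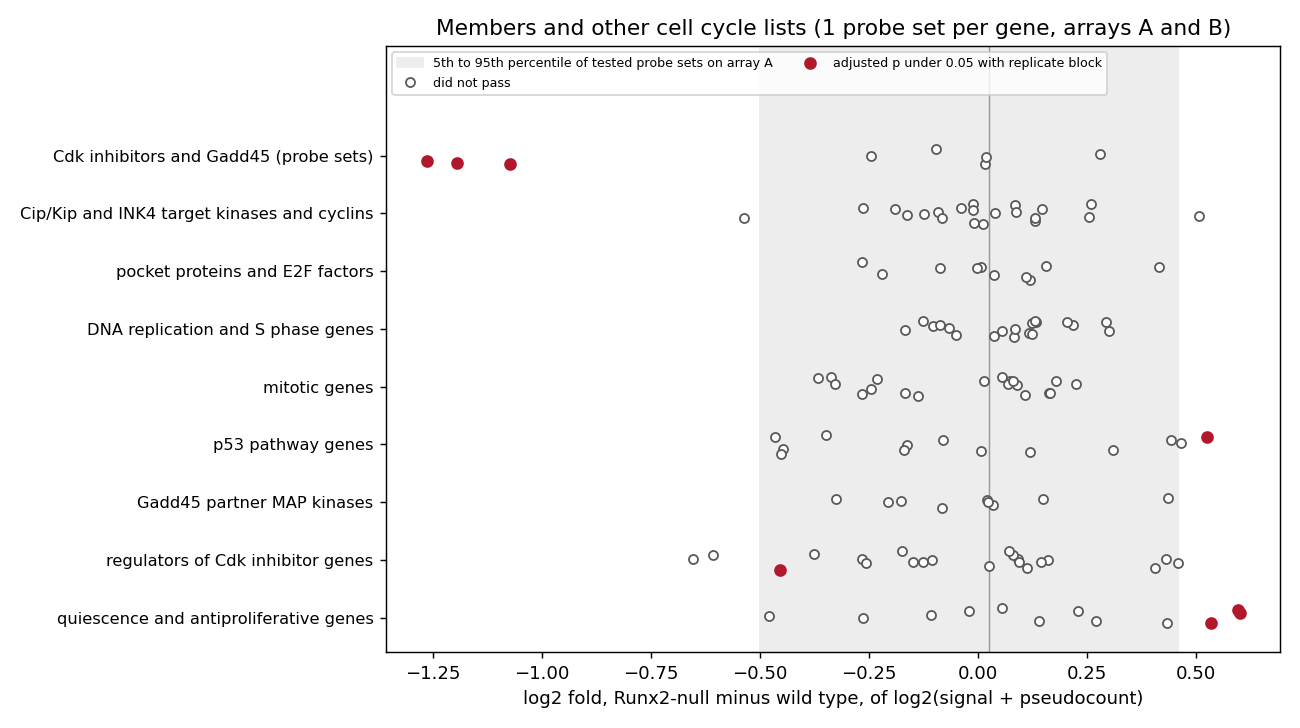
Log2 fold (Runx2-null minus wild type) of the 8 tested member probe sets and of 124 genes of 8 cell cycle lists on arrays A and B; red points passed with the replicate block, and the grey band is the 5th to 95th percentile of array A. The 3 member probe sets that fell lie left of every plotted list gene.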

How the data were processed

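Humeri of 4 RNA pools (2 Runx2-null, 2 wild type) were hybridised to 3 array types, 12 arrays in all, from 10 µg of total RNA each per the labels. The authors deposited MAS5 signals, a linear intensity per probe set; MAS5 is named in the submitters' processing notes, without a version in the sources used here. The 2% trimmed mean of every deposited array was 100.0 to 100.1 and median intensity 37.5 to 60.4, so each array had been brought to 1 overall level, and none was normalized again. The number of arrays limits precision.

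Gene symbols are those of the platform annotation: 29131 had 1 symbol, 724 several and 6846 none, and 198 controls were left out. Values were log2(signal + pseudocount), with pseudocounts of 7, 13 and 10 (the 20th percentile of each type). limma 3.58.1 in R 4.3.3 was fitted per array type (lmFit, eBayes with trend) and adjusted by Benjamini-Hochberg over 23193 tested probe sets. All p-values in the text are limma's. The design without a block was the main one, and the block was set beside it since the array files give each replicate number its own scan settings. The script was tested on simulated data. Pools are biological replicates per the labels, and no p-value covers a spread beyond these pools. In the blocked fit the spread is taken mostly from other probe sets and less from the probe set itself.

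Per pathway and marker list, each gene was read from its brightest tested probe set on arrays A and B, by percentile of mean signal. Up to 4 genes per list with the lowest p were open to naming. Map3k4 was named besides them, after its value was seen, as the kinase Gadd45 proteins bind. Of the marker genes, Ibsp, Mmp13 and Mmp9 are those with the lowest p with the block in their lists, and some others are given beside them. The 5 closest probe sets were named for each member that passed. Members and lists were chosen with earlier results of these data known. Promoter windows came from RefSeq (GRCm38.p6).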

Additional observations from a re-analysis of the deposited data

How the results depend on the processing

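Without a block, 0 member probe sets, 6 of all tested probe sets and 0 pathway list genes passed. The replicate block raised these to 3, 505 and 5. The same 3 counts with the block were 3, 556 and 6 when p-values were adjusted within array types, 3, 343 and 5 on arrays A and B alone, 4, 609 and 5 after quantile normalization, 3, 667 and 5 with pseudocounts divided by 4, 3, 833 and 7 with pseudocounts multiplied by 4, and 3, 426 and 6 on array A alone, a setting chosen after seeing the data. With the block and no filter they were 0, 110 and 1, with the block and no variance trend 0, 6 and 0, and with the block in 1 fit over all array types 0, 4 and 0, so that every member and list call was lost in the last 2 settings. Without the block, all tested probe sets gave 12 calls after quantile normalization, 2 with pseudocounts divided by 4, 13 with pseudocounts multiplied by 4, 11 with the filter at the 60th percentile and 2 without a variance trend, and leaving out 1 array gave 5 to 22, with 0 members in each. The Cdkn1a and Gadd45g log2 folds kept their negative sign in every setting that tested them; Gadd45g was not tested with the filter at the 60th percentile. Members near 0 changed sign. Leaving out 1 array gave -0.21 to 0.02 for Cdkn1c (0.0177 without wild-type replicate 1), -0.11 to 0.15 for Cdkn2d (-0.0863 without wild-type replicate 2), -0.27 to 0.31 for Gadd45b 102779_at (-0.0225 without wild-type replicate 1) and -0.64 to 0.14 for Gadd45b 161666_f_at. Batch 1 alone gave -0.23 for Gadd45b 102779_at, and batch 2 alone gave -0.0114 for Cdkn2d. The causes were not tested. Signals near the filter limit Cdkn1a 98067_at, Gadd45g and Gadd45a, and 2 arrays per genotype limit every value.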
